A study of Mus musculus with 8 samples.

Results

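The nuclear-encoded subunits of the oxidative phosphorylation machinery were examined in mouse heart muscle. They were chosen as a list of 47 gene symbols by function, with no measured value in the rule, though earlier results of these data were known. Every probe whose RefSeq transcript belongs to a listed gene was taken. All 47 genes were found, with 58 of the 39429 probes of the array, and the 58 probes were all kept by the filter on dim probes. They are 47 of the 19056 genes tested. Complex I is represented by 20 genes, complex II by 4, complex III by 6, cytochrome c by 1, complex IV by 10 and complex V by 6. Ndufa4, named after complex I, was counted with complex IV, in which its protein is a subunit, and Atp5f1 stands in the RefSeq table under its newer symbol Atp5pb.

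Total RNA from the myocardium of untreated male mice was labelled with Cy3 and hybridised to one-colour Agilent expression arrays, 1 per sample. The 3 NPRA-/- samples came from mice described as lacking natriuretic peptide receptor A, encoded by Npr1, in the heart, in a line built on a floxed allele, and the 5 NPRA+/+ samples came from wild-type mice. The promoter that drives the recombinase, the ages and the number of animals per sample are unstated here. The labels do not link samples to individual mice, so a p-value reflects only how these samples spread. Although the design text mentions m6A, an RNA methylation, the series type is expression profiling, and signals are treated as transcript levels.

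Oxidative phosphorylation turns the energy of food into ATP at the inner mitochondrial membrane. Complexes I and II pass electrons from NADH and succinate to ubiquinone, complex III passes them to cytochrome c, complex IV passes them to oxygen, and complex V, the ATP synthase, makes ATP from the proton gradient that complexes I, III and IV build. Heart muscle, which beats without rest, is packed with mitochondria and draws most of its ATP from this pathway.

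The arrays were scanned on 4 days. Only scan day 1 held both genotypes, with replicates 2 and 3 of each, NPRA-/- replicate 1 was alone on day 3 and NPRA+/+ replicate 1 was alone on day 4. Those last 2 arrays stood apart from the other 6 on the first principal component (47.3% of the variance). On each array 79.5% to 92.6% of the probes were well above background. Precision is limited by how many arrays there were. Npr1 was measured by 1 probe near background, between -6.42 and -5.53 on the NPRA-/- arrays and between -6.55 and -4.77 on the NPRA+/+ arrays, where a level is the log2 signal relative to the 75th percentile of the array. Whether this probe lies inside the deleted stretch is unknown here, so its signal is no check of the genotype labels. All 12 cardiomyocyte markers (Myh6, Tnnt2, Actc1 and others) were well above background on every array.

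No subunit gene passed the test in either direction. With limma, whose test sets the fitted log2 change of NPRA-/- over NPRA+/+ against 0, 0 of 47 genes were called higher and 0 lower at an adjusted p of 0.05, where 0.32% of the 35329 probes tested were called higher and 0.0283% lower. Without adjustment, at p under 0.05, the counts were again 0 and 0, against 18.3% of all probes higher and 1.36% lower. Among the brightest of 5 equal groups of probes by signal, to which all 47 genes belong, 1.88% were higher at that level. The smallest unadjusted p of a subunit gene was 0.0506, for Ndufa1 (limma, adjusted p = 0.255). In 2 genes, Ndufa1 and Ndufc2, all NPRA-/- arrays lay above all NPRA+/+ arrays, and in 0 genes below them. That compares with 14.1% and 1.29% of all probes, and with 3.64% higher among the brightest of the 5 groups and 5.43% among the brightest twentieth, which holds 44 of the 47 genes.

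The fitted changes leaned upwards without passing the test. The median over the 47 genes was 0.41, and 43 genes had a fitted change above 0. All probes tested had a median of 0.21 themselves, so changes are given below relative to it, as the fitted change minus 0.21 with the SE of the fit, while the limma p refers to the fitted change. The relative changes ran from -0.28 (Cox6b1) to 0.75 (Cycs) with a median of 0.20, and 40 were above 0 and 7 below. Without NPRA-/- replicate 1, 23 of the 47 relative changes were above 0 and their median was -0.0023, and without replicate 1 of both genotypes 34 were above 0. The lean was also weaker or absent in other fits, with 21 above 0 when scan day was a block, 26 with a replicate block by repetition number, 25 with array weights and 19 after normexp background correction. By complex the median relative change was 0.13 for complex I, 0.23 for complex II, 0.17 for complex III, 0.23 for complex IV and 0.28 for complex V. The median fitted change was 0.05 over the brightest of the 5 groups and 0.18 over the brightest twentieth.

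**Figure D1:**
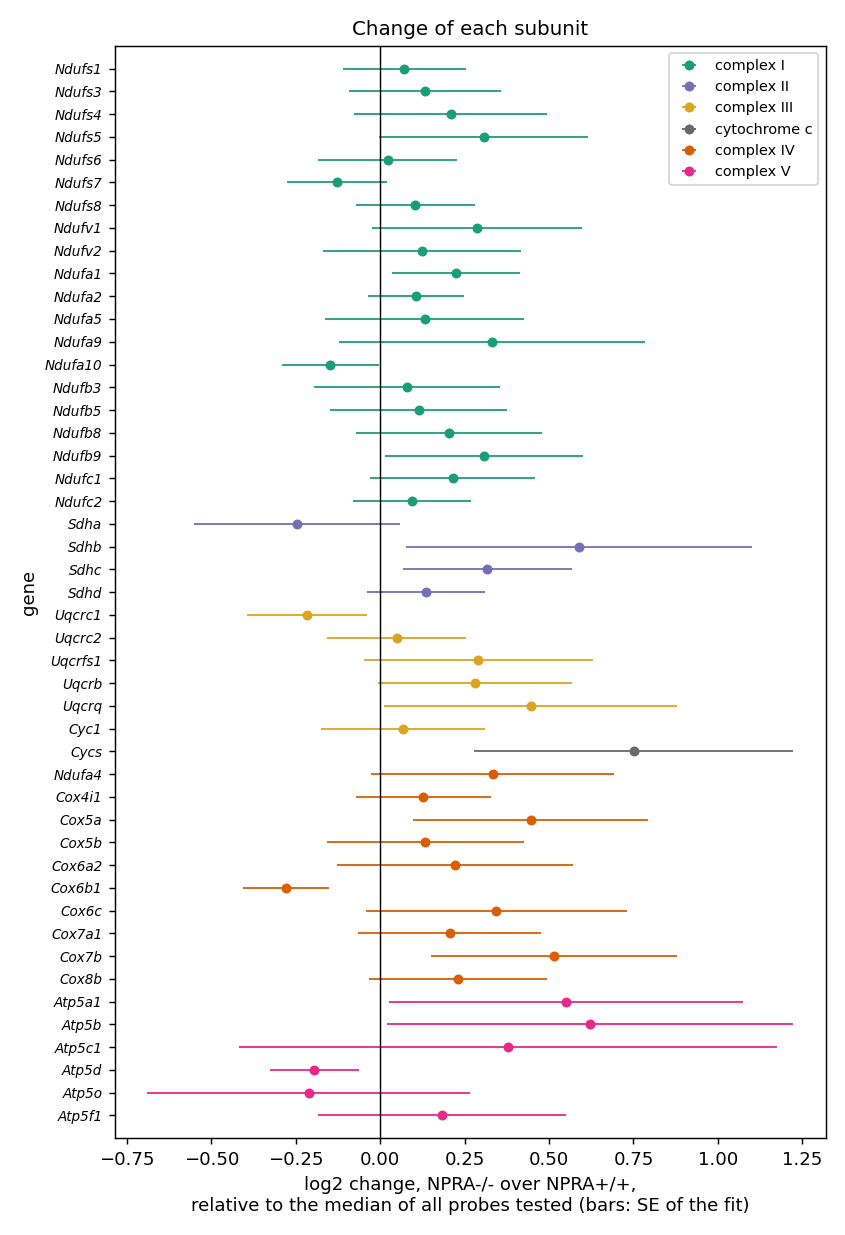
Log2 change of each of the 47 subunit genes, NPRA-/- over NPRA+/+, relative to the median of all probes tested, with the SE of the fit as bars and complexes by colour. The points lie mostly right of 0, from -0.28 for Cox6b1 to 0.75 for Cycs, and no gene passed the threshold.

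The promoters of 4 genes named often in the results are shown. Cycs had the largest relative change, Atp5b and Cox5a passed the test within scan day 1, and Cox6b1 varied least over the arrays. Each sequence is the 250 bases before the transcript start from RefSeq, in the orientation of the gene. Capitals mark matches on either strand to GCATGCGC, the core bound by nuclear respiratory factor 1 (NRF1), TGACGTCA, the cyclic AMP response element (CRE), CCGGAAG, an ETS site as bound by GABP, and GGGCGG, the GC box.
Cycs: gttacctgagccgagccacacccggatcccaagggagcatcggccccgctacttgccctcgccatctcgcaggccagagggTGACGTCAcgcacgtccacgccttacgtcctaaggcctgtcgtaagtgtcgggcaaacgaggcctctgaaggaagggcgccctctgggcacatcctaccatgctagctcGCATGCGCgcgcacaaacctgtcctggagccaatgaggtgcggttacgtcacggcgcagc
Atp5b: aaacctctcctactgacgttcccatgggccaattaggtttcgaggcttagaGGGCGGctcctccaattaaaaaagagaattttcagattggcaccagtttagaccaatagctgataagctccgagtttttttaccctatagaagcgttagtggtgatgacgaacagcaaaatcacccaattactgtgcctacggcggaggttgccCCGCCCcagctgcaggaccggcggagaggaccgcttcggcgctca
Cox5a: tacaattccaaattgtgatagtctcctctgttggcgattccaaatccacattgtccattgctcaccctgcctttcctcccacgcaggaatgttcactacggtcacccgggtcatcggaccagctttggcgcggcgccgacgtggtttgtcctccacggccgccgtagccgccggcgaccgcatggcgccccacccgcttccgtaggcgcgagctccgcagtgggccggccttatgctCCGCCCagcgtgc
Cox6b1: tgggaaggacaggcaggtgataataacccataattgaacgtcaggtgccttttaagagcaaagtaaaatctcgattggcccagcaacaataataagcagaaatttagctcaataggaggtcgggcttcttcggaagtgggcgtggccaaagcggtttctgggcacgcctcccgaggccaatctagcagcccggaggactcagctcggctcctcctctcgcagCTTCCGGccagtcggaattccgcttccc
In GRCm38.p6 these are chr6:50566570-50566819 on the minus strand for Cycs, chr10:128083057-128083306 on the plus strand for Atp5b, chr9:57520982-57521231 on the plus strand for Cox5a and chr7:30626115-30626364 on the minus strand for Cox6b1. Cycs held an NRF1 core 60 to 53 bases and a CRE 169 to 162 bases before the start. Atp5b held GC boxes at 199 to 194 and 45 to 40 bases, Cox5a held a GC box at 13 to 8 bases, and Cox6b1 held an ETS site at 28 to 22 bases. Promoters were matched for 35 of the 47 genes. The NRF1 core was in 2 of them (5.71%), against 2.32% of 27025 promoters of all genes, and those 2 were Cycs and Sdhb. The CRE was in 3 (8.57%, against 1.62%), the ETS site in 3 (8.57%, against 7.05%) and the GC box in 10 (28.6%, against 32.9%). The half-site AAGGTCA, bound by oestrogen-related receptors, was in 1 (2.86%, against 4.05%), and AANATGGCG, bound by YY1, was in 0 (0%, against 1.12%). These matches describe letters only. The motifs do not overlap in the 4 sequences shown. The promoters of Cox7a1 and Cox8b, drawn with these 4 but not shown, held no match to any of the motifs.

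What the 47 genes did share was their variation from array to array. For each gene the mean of the NPRA+/+ arrays was subtracted, and the median over the 47 genes was taken on each array. It was 0.87, 0.18 and 0.15 on NPRA-/- replicates 1 to 3 and 0.51, 0.06, -0.01, -0.08 and -0.53 on NPRA+/+ replicates 1 to 5. NPRA-/- replicate 1 thus stood highest, NPRA+/+ replicate 1 next and NPRA+/+ replicate 5 lowest, while the other 5 arrays lay between -0.08 and 0.18. The spread within each genotype was larger than the distance between NPRA-/- replicates 2 and 3 and the NPRA+/+ mean.

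NPRA-/- replicate 1 was the highest of the 8 arrays for 39 of the 44 genes with a value on every array (88.6%). It was also the highest for 54.5% of the brightest twentieth of probes and for 30.6% of the brightest of the 5 groups. NPRA+/+ replicate 5 was the lowest for 39 of the 44 (88.6%), against 53.8% of the brightest twentieth and 21.4% of the brightest of the 5 groups. The brightest twentieth of probes moved the same way by a smaller amount, at 0.40, 0.09 and 0.06 on NPRA-/- replicates 1 to 3 and 0.16, 0.06, 0.02, -0.01 and -0.24 on NPRA+/+ replicates 1 to 5. The median range over the 8 arrays was 1.44 for the subunit genes, 0.88 for the brightest twentieth and 0.69 for the brightest of the 5 groups.

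**Figure D2:**
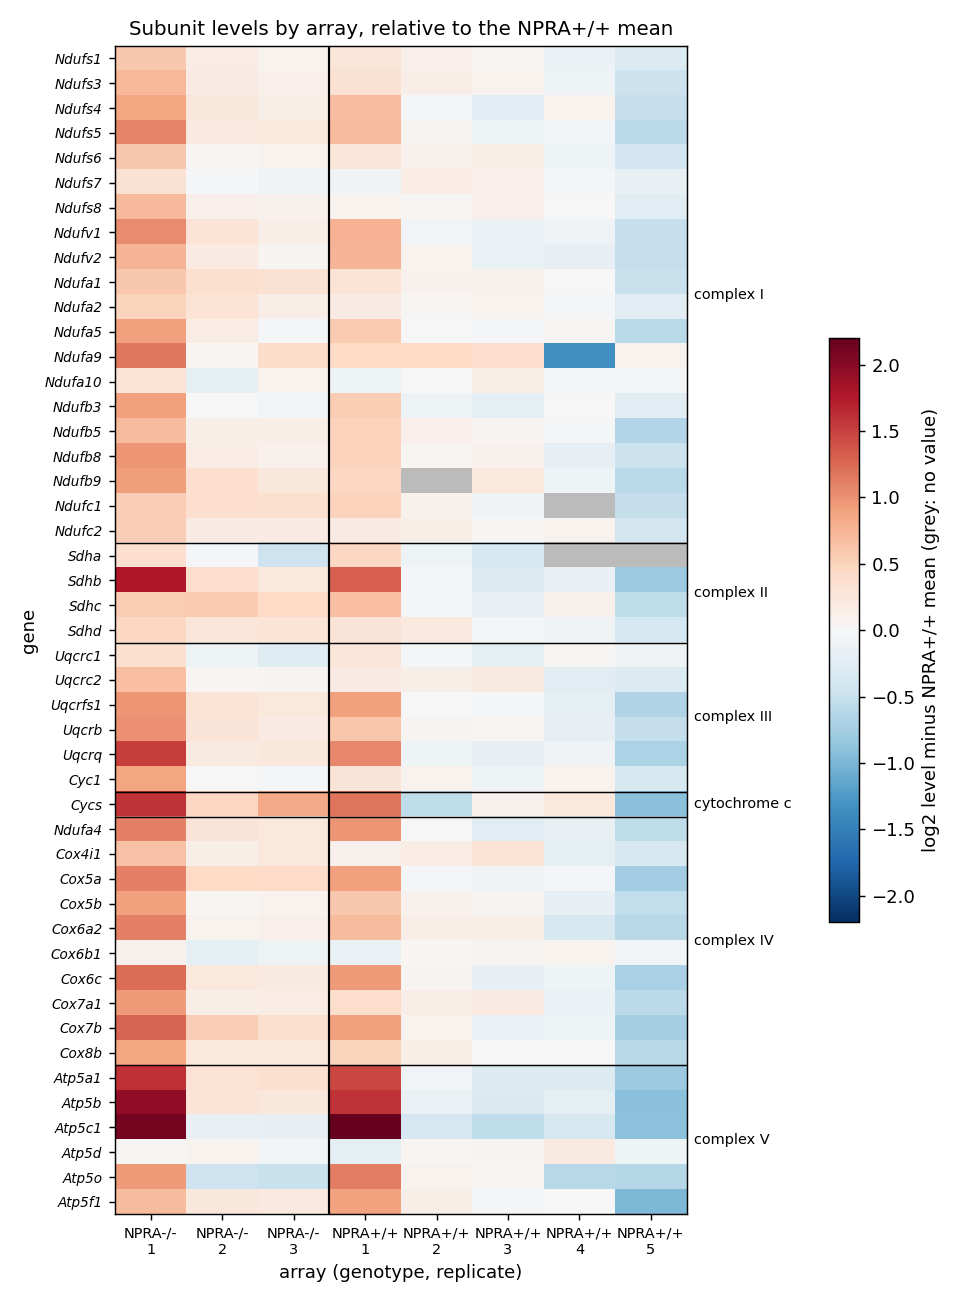
Level of each subunit gene (rows, by complex) on each array (columns) as log2 difference from the gene's NPRA+/+ mean, with missing values in grey. NPRA-/- replicate 1 and NPRA+/+ replicate 1 are high for most genes and NPRA+/+ replicate 5 is low, while Cox6b1, Atp5d, Ndufa10 and Ndufs7 vary little.

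The complexes followed this pattern to different degrees. Complex I was at 0.73, 0.18 and 0.12 on NPRA-/- replicates 1 to 3 and 0.45, 0.08, 0.07, -0.04 and -0.47 on NPRA+/+ replicates 1 to 5. Complex IV was at 1.02, 0.18 and 0.21 on NPRA-/- replicates 1 to 3 and 0.64, 0.09, 0.02, -0.13 and -0.59 on NPRA+/+ replicates 1 to 5. Complex V was at 1.27, 0.17 and 0.08 on NPRA-/- replicates 1 to 3 and 1.30, -0.01, -0.16, -0.26 and -0.85 on NPRA+/+ replicates 1 to 5, the widest swing of the 5 complexes. NPRA-/- replicate 1 was the highest array for 18 of 18 complex I genes with complete values, 6 of 6 in complex III and 10 of 10 in complex IV, but for 2 of 3 in complex II and 2 of 6 in complex V. Complex II was at 0.51, 0.33 and 0.27 on NPRA-/- replicates 1 to 3 and 0.56, -0.04, -0.23, -0.07 and -0.56 on NPRA+/+ replicates 1 to 5, so its 3 NPRA-/- arrays differed less among themselves than those of the other complexes, and in complexes II and V NPRA+/+ replicate 1 was the highest array by this median. Complex III was at 0.92, 0.13 and 0.12 on NPRA-/- replicates 1 to 3 and 0.44, 0.02, -0.06, -0.13 and -0.44 on NPRA+/+ replicates 1 to 5.

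Markers of heart muscle cells, and the summed signals of some other cell types, moved with the subunits. The 12 cardiomyocyte markers were at 1.42, 0.18 and 0.18 on NPRA-/- replicates 1 to 3 and 1.12, 0.05, -0.03, -0.31 and -0.67 on NPRA+/+ replicates 1 to 5, a wider swing than that of the subunits. Their summed linear signal relative to the 75th percentile ran from 899 to 2150 on the NPRA-/- arrays and from 493 to 1740 on the NPRA+/+ arrays, and none of the 12 was absent. Of the 12 markers 11 had a fitted change above 0, with a median of 0.60, and 0 were called. The 4 adipocyte markers measured summed to 155, 94.2 and 95.6 on NPRA-/- replicates 1 to 3 and 129, 77.1, 67.9, 74.5 and 53.8 on NPRA+/+ replicates 1 to 5. The 6 erythroid markers summed to 246, 121 and 119 on NPRA-/- replicates 1 to 3 and 161, 125, 134, 123 and 80.8 on NPRA+/+ replicates 1 to 5. Both sums were highest on NPRA-/- replicate 1, next on NPRA+/+ replicate 1 and lowest on NPRA+/+ replicate 5, as the subunits were. A fitted change above 0 was found in 3 of 4 adipocyte and 4 of 6 erythroid markers, and in 26485 of the 35329 probes tested. The 5 lymphocyte markers summed to between 0.488 and 0.749 on the NPRA-/- arrays and between 0.391 and 0.664 on the NPRA+/+ arrays, also highest on replicate 1 of each genotype. A sum is weighted to its brightest genes, and the median deviations of the adipocyte, erythroid and lymphocyte markers did not keep the subunits' order. In that sequence they were 0.67, 0.75 and 0.28 on NPRA-/- replicate 1. On NPRA+/+ replicate 1 they were -0.16, -0.11 and -0.26, and on NPRA+/+ replicate 5 0.18, -0.25 and -0.09. The skeletal muscle sum was highest on NPRA+/+ replicate 1 (2.34), then on NPRA-/- replicate 1 (1.14), and lowest on NPRA+/+ replicate 5 (0.565). Other sums went another way. The endothelial (28.9) and smooth muscle (11.1) sums were lowest on NPRA-/- replicate 1. The macrophage sum was lowest on NPRA+/+ replicate 1 (11.6). Fibroblast sums were 104 to 134 on the NPRA-/- arrays and 91 to 96.5 on the NPRA+/+ arrays. Mesothelial markers, 6 of 6 with a fitted change above 0 and 1 of them called (Msln, limma, adjusted p = 0.0498), did not overlap between the genotypes in 4 of 6, higher in NPRA-/-, and overlapped in Upk1b and Wt1. Across all probes 14.1% were higher without overlap and 0.32% were called higher. The median deviations of the mesothelial markers were 1.43, 1.82 and 2.58 on NPRA-/- replicates 1 to 3 and between -0.29 and 0.43 on the NPRA+/+ arrays. Their summed signal ran from 1.15 to 1.69 on the NPRA-/- arrays and from 0.62 to 0.955 on the NPRA+/+ arrays, and 2 of the 6 were well above background on every array. The part of these cell types in the subunit levels was not tested, and in bulk tissue fewer cells of a type cannot be told apart from less RNA per cell.

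**Figure D3:**
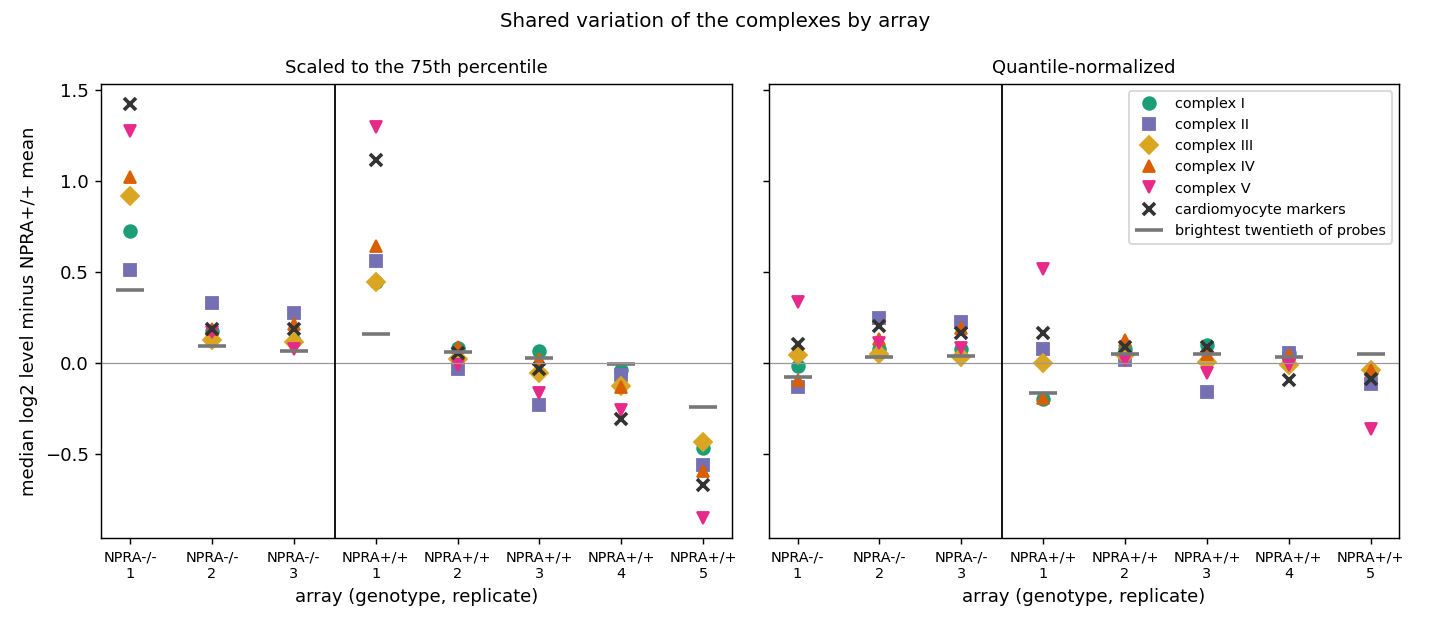
Median log2 deviation from the NPRA+/+ mean on each array for 5 complexes, the cardiomyocyte markers and the brightest twentieth of probes, scaled to the 75th percentile (left) and quantile-normalized (right). Scaled to the percentile, NPRA-/- replicate 1 and NPRA+/+ replicate 1 are high and NPRA+/+ replicate 5 is low for every set, and after quantile normalization only complex V keeps a swing above 0.5, at 0.33 on NPRA-/- replicate 1, 0.52 on NPRA+/+ replicate 1 and -0.37 on NPRA+/+ replicate 5.

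Quantile normalization, which gives every array the same distribution of values, removed most of the shared swing. The median deviation of the 47 genes was then 0.01, 0.12 and 0.15 on NPRA-/- replicates 1 to 3 and -0.06, 0.06, 0.04, 0.04 and -0.08 on NPRA+/+ replicates 1 to 5. Complex V kept part of it, at 0.33, 0.11 and 0.08 on NPRA-/- replicates 1 to 3 and 0.52, 0.02, -0.05, -0.01 and -0.37 on NPRA+/+ replicates 1 to 5. The median relative change under this normalization was 0.10 over the 47 genes, with 30 of 47 fitted changes above 0.

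Complex I, the NADH dehydrogenase, showed small changes that did not pass the test. Ndufa1, an X-linked accessory subunit of the membrane arm, had levels of 6.17, 5.93 and 5.91 on the NPRA-/- arrays, against 5.87, 5.67, 5.67, 5.56 and 5.08 on the NPRA+/+ arrays. The genotypes did not overlap, but NPRA+/+ replicate 1 came close to the lowest NPRA-/- array, and the means were 6.00 ± 0.14 in NPRA-/- and 5.57 ± 0.29 in NPRA+/+ (SD, n = 3 and 5). Its relative change was 0.22 ± 0.19 (limma, adjusted p = 0.255). Ndufa2, another accessory subunit, had levels of 5.73, 5.56 and 5.40 on the NPRA-/- arrays, against 5.42, 5.27, 5.33, 5.21 and 5.02 on the NPRA+/+ arrays. Only NPRA+/+ replicate 1 reached into the NPRA-/- range, just above the lowest NPRA-/- array, and the relative change was 0.11 ± 0.14 (limma, adjusted p = 0.268).

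Ndufv1 carries the flavin that takes electrons from NADH. It was measured at 6.87, 6.14 and 5.98 on the NPRA-/- arrays, against 6.61, 5.77, 5.71, 5.76 and 5.33 on the NPRA+/+ arrays. NPRA+/+ replicate 1 lay between the highest and the other NPRA-/- arrays, and the other 4 NPRA+/+ arrays lay below all NPRA-/- arrays, with a relative change of 0.29 ± 0.31 (limma, adjusted p = 0.424). Ndufs1, the iron-sulphur subunit next in the electron path, had levels of 6.02, 5.58 and 5.50 on the NPRA-/- arrays, against 5.70, 5.53, 5.46, 5.30 and 5.13 on the NPRA+/+ arrays. NPRA+/+ replicates 1 and 2 both exceeded the lowest NPRA-/- array, and the relative change was 0.07 ± 0.18 (limma, adjusted p = 0.438). Ndufs8, an iron-sulphur subunit near the quinone site, had levels of 3.36, 2.76 and 2.74 on the NPRA-/- arrays, against 2.72, 2.67, 2.75, 2.65 and 2.40 on the NPRA+/+ arrays. NPRA-/- replicate 1 was far above the rest, while NPRA-/- replicates 2 and 3 overlapped with NPRA+/+ replicate 3, and the relative change was 0.10 ± 0.18 (limma, adjusted p = 0.372).

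The other 15 complex I genes had relative changes from -0.15 (Ndufa10) to 0.33 (Ndufa9), 13 of them above 0, and limma adjusted p between 0.38 and 0.86. In 14 of the 15 the genotypes overlapped. Ndufc2 was the exception, at 5.45, 5.10 and 5.10 on the NPRA-/- arrays, against 5.10, 5.04, 4.94, 5.00 and 4.51 on the NPRA+/+ arrays, and the gap between the nearest arrays of the genotypes was under 0.01. Ndufb9 lacked a value on NPRA+/+ replicate 2 and Ndufc1 on NPRA+/+ replicate 4, and the fit used their remaining arrays. Ndufa9 ranged 5.69-fold over the arrays, with NPRA+/+ replicate 4 at 3.45 while the other NPRA+/+ arrays lay between 4.87 and 5.24.

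Complex II is the succinate dehydrogenase, which also belongs to the citric acid cycle, and none of its 4 genes passed the test. Sdhc, a membrane anchor, was measured at 6.35, 6.37 and 6.23 on the NPRA-/- arrays, against 6.45, 5.76, 5.63, 5.89 and 5.23 on the NPRA+/+ arrays. The 3 NPRA-/- arrays lay close together, NPRA+/+ replicate 1 lay above them and the other 4 NPRA+/+ arrays below them. The means were 6.32 ± 0.07 in NPRA-/- and 5.79 ± 0.44 in NPRA+/+ (SD, n = 3 and 5), and the relative change was 0.32 ± 0.25 (limma, adjusted p = 0.29). Without NPRA+/+ replicate 1 Sdhc passed the threshold with a fitted change of 0.69 ± 0.17 (SE; limma, adjusted p = 0.046), in a fit that called 11% of all probes higher and 0.529% lower. Its second probe, dimmer but also well above background on every array, had a relative change of -0.14 ± 0.20.

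Sdhd, the other membrane anchor, had levels of 6.19, 5.99 and 6.03 on the NPRA-/- arrays, against 6.01, 5.94, 5.69, 5.66 and 5.34 on the NPRA+/+ arrays. NPRA+/+ replicate 1 exceeded only the lowest NPRA-/- array, and by little, and the relative change was 0.14 ± 0.17 (limma, adjusted p = 0.319). Sdhb, the iron-sulphur subunit, had levels of 7.52, 6.16 and 6.00 on the NPRA-/- arrays, against 7.08, 5.72, 5.46, 5.59 and 4.96 on the NPRA+/+ arrays. Replicate 1 of each genotype stood more than 1 above the other arrays of its genotype, and the relative change was 0.59 ± 0.51 (limma, adjusted p = 0.434), against -0.02 ± 0.27 for the second probe of the gene. Sdha, the flavoprotein that oxidises succinate, was at 5.24, 4.84 and 4.40 on the NPRA-/- arrays and at 5.33, 4.75 and 4.51 on NPRA+/+ replicates 1 to 3, with no value on NPRA+/+ replicates 4 and 5. NPRA-/- replicate 3 was the lowest and NPRA+/+ replicate 1 the highest of the 6 arrays, and the relative change, fitted on those 6 arrays, was -0.25 ± 0.30 (limma, adjusted p = 0.964).

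Complex III, the cytochrome bc complex, had 5 of 6 relative changes above 0, and 0 of its genes passed. Uqcrfs1, the Rieske iron-sulphur protein, had levels of 6.82, 6.16 and 6.10 on the NPRA-/- arrays, against 6.76, 5.85, 5.83, 5.66 and 5.21 on the NPRA+/+ arrays. Uqcrb, a small ubiquinone-binding subunit, had levels of 6.92, 6.18 and 6.09 on the NPRA-/- arrays, against 6.52, 5.97, 5.95, 5.73 and 5.38 on the NPRA+/+ arrays. Uqcrq, another small subunit, had levels of 6.91, 5.60 and 5.64 on the NPRA-/- arrays, against 6.45, 5.31, 5.21, 5.32 and 4.70 on the NPRA+/+ arrays. In all 3 genes NPRA+/+ replicate 1 lay below NPRA-/- replicate 1 and above the other NPRA-/- arrays, and the other 4 NPRA+/+ arrays lay below every NPRA-/- array. The relative changes were 0.29 ± 0.34 for Uqcrfs1 (limma, adjusted p = 0.459), 0.28 ± 0.29 for Uqcrb (limma, adjusted p = 0.387) and 0.45 ± 0.43 for Uqcrq (limma, adjusted p = 0.449).

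Cyc1, the haem-bearing cytochrome of complex III, was measured at 5.83, 4.95 and 4.93 on the NPRA-/- arrays, against 5.24, 5.04, 4.88, 5.05 and 4.62 on the NPRA+/+ arrays. NPRA-/- replicates 2 and 3 lay below NPRA+/+ replicates 1, 2 and 4, and the relative change was 0.07 ± 0.24 (limma, adjusted p = 0.581). Without NPRA-/- replicate 1 the fitted change of Cyc1 was -0.022. The core proteins Uqcrc1 and Uqcrc2 had relative changes of -0.22 ± 0.18 and 0.05 ± 0.21, both with overlapping genotypes. Other probes of Uqcrb gave relative changes of 0.63 and -0.06, and the other probe of Uqcrq gave 0.01, each with a fitted change above 0.

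Cycs encodes cytochrome c, the small soluble carrier between complexes III and IV. Its brightest probe was at 7.20, 6.08 and 6.45 on the NPRA-/- arrays, against 6.80, 5.05, 5.70, 5.84 and 4.69 on the NPRA+/+ arrays, with means of 6.58 ± 0.57 in NPRA-/- and 5.62 ± 0.81 in NPRA+/+ (SD, n = 3 and 5). NPRA+/+ replicate 1 exceeded NPRA-/- replicates 2 and 3, and the other 4 NPRA+/+ arrays lay below all NPRA-/- arrays. The relative change was 0.75 ± 0.47 (limma, adjusted p = 0.307), the highest point estimate among the 47 genes, on a range of 5.69-fold over the arrays. The 3 probes of Cycs disagreed. The second bright probe had a relative change of 0.06 ± 0.21 and the dim one of -0.37 ± 0.13, with fitted changes of 0.27 and -0.16.

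Complex IV, cytochrome c oxidase, includes isoforms that are made in heart and skeletal muscle. Of these, Cox6a2 had levels of 7.52, 6.48 and 6.53 on the NPRA-/- arrays, against 7.12, 6.55, 6.54, 6.05 and 5.80 on the NPRA+/+ arrays, with NPRA+/+ replicates 1 to 3 all above NPRA-/- replicates 2 and 3. Cox7a1 had levels of 7.38, 6.59 and 6.61 on the NPRA-/- arrays, against 6.83, 6.60, 6.63, 6.30 and 5.87 on the NPRA+/+ arrays, where NPRA-/- replicates 2 and 3 lay level with NPRA+/+ replicates 2 and 3. Cox8b had levels of 6.92, 6.27 and 6.28 on the NPRA-/- arrays, against 6.55, 6.18, 6.04, 6.05 and 5.44 on the NPRA+/+ arrays, with NPRA+/+ replicate 1 the only NPRA+/+ array inside the NPRA-/- range. Their relative changes were smaller than their SE, at 0.22 ± 0.35 for Cox6a2, 0.21 ± 0.27 for Cox7a1 and 0.23 ± 0.26 for Cox8b (limma, adjusted p = 0.544, 0.444 and 0.401).

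Cox5a, a subunit on the matrix side, had levels of 7.19, 6.53 and 6.51 on the NPRA-/- arrays, against 6.99, 6.06, 6.02, 6.05 and 5.33 on the NPRA+/+ arrays. Its relative change was 0.45 ± 0.35 (limma, adjusted p = 0.341). Cox7b, a small membrane subunit, had levels of 6.65, 5.92 and 5.73 on the NPRA-/- arrays, against 6.28, 5.46, 5.24, 5.26 and 4.64 on the NPRA+/+ arrays. NPRA+/+ replicate 1 lay between the highest and the other NPRA-/- arrays in both genes, with the other 4 NPRA+/+ arrays below, and the relative change of Cox7b was 0.52 ± 0.36 (limma, adjusted p = 0.317). Ndufa4 had levels of 6.96, 6.13 and 6.07 on the NPRA-/- arrays, against 6.82, 5.84, 5.59, 5.69 and 5.29 on the NPRA+/+ arrays, in the same order, and a relative change of 0.33 ± 0.36 (limma, adjusted p = 0.448).

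Cox4i1, the ubiquitous form of subunit IV, did not follow that order. Its levels were 6.99, 6.49 and 6.58 on the NPRA-/- arrays, against 6.45, 6.52, 6.65, 6.14 and 6.00 on the NPRA+/+ arrays. NPRA+/+ replicate 3, not replicate 1, was the highest NPRA+/+ array and exceeded NPRA-/- replicates 2 and 3, and the relative change was 0.13 ± 0.20 (limma, adjusted p = 0.393). Cox6b1, a subunit that clamps the dimer of the enzyme, varied least of all 47 genes, 1.22-fold over the 8 arrays, at 3.03, 2.74 and 2.83 on the NPRA-/- arrays, against 2.80, 2.99, 3.01, 3.02 and 2.88 on the NPRA+/+ arrays. It was chosen after its values were seen. Its relative change was -0.28 ± 0.13 (limma, adjusted p = 0.806), the lowest of the 47 genes, with overlapping genotypes. Cox5b and Cox6c had relative changes of 0.13 ± 0.29 and 0.34 ± 0.39.

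Complex V, the ATP synthase, held the genes with the widest ranges. Atp5b, the catalytic beta subunit, was measured at 7.81, 6.16 and 6.12 on the NPRA-/- arrays, against 7.47, 5.73, 5.55, 5.65 and 4.96 on the NPRA+/+ arrays, a 7.24-fold range. Atp5a1, the alpha subunit of the same catalytic head, had levels of 7.59, 6.31 and 6.34 on the NPRA-/- arrays, against 7.46, 5.92, 5.69, 5.69 and 5.18 on the NPRA+/+ arrays. In both genes replicate 1 of each genotype stood more than 1 above its other arrays, NPRA+/+ replicate 5 was the lowest, and NPRA+/+ replicates 2 to 5 lay below all NPRA-/- arrays. The relative changes were 0.62 ± 0.60 for Atp5b (limma, adjusted p = 0.491) and 0.55 ± 0.52 for Atp5a1 (limma, adjusted p = 0.466). Atp5f1, subunit b of the peripheral stalk, had levels of 6.28, 5.84 and 5.81 on the NPRA-/- arrays, against 6.47, 5.71, 5.56, 5.59 and 4.60 on the NPRA+/+ arrays. NPRA+/+ replicate 1 was the highest of the 8 arrays, and the relative change was 0.18 ± 0.37 (limma, adjusted p = 0.607), against -0.06 ± 0.26 for its other probe.

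The other 3 complex V genes, described after their values were seen, differed in their range. Atp5c1, the gamma subunit of the rotating stalk, ranged 8.46-fold, the widest of the 47 genes, at 6.57, 4.30 and 4.28 on the NPRA-/- arrays, against 6.65, 4.09, 3.90, 4.11 and 3.57 on the NPRA+/+ arrays. Replicate 1 of both genotypes stood more than 2 above every other array, and its relative change of 0.38 ± 0.80 was below its SE. Atp5d, the delta subunit of the same stalk, ranged 1.33-fold, at 3.44, 3.48 and 3.34 on the NPRA-/- arrays, against 3.20, 3.44, 3.46, 3.61 and 3.32 on the NPRA+/+ arrays, with no array apart from the rest. Atp5o, a stalk subunit that links the catalytic head to the peripheral stalk, had levels of 6.14, 4.75 and 4.70 on the NPRA-/- arrays, against 6.33, 5.28, 5.24, 4.59 and 4.58 on the NPRA+/+ arrays. NPRA-/- replicates 2 and 3 lay below NPRA+/+ replicates 1 to 3 and above replicates 4 and 5.

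**Figure D4:**
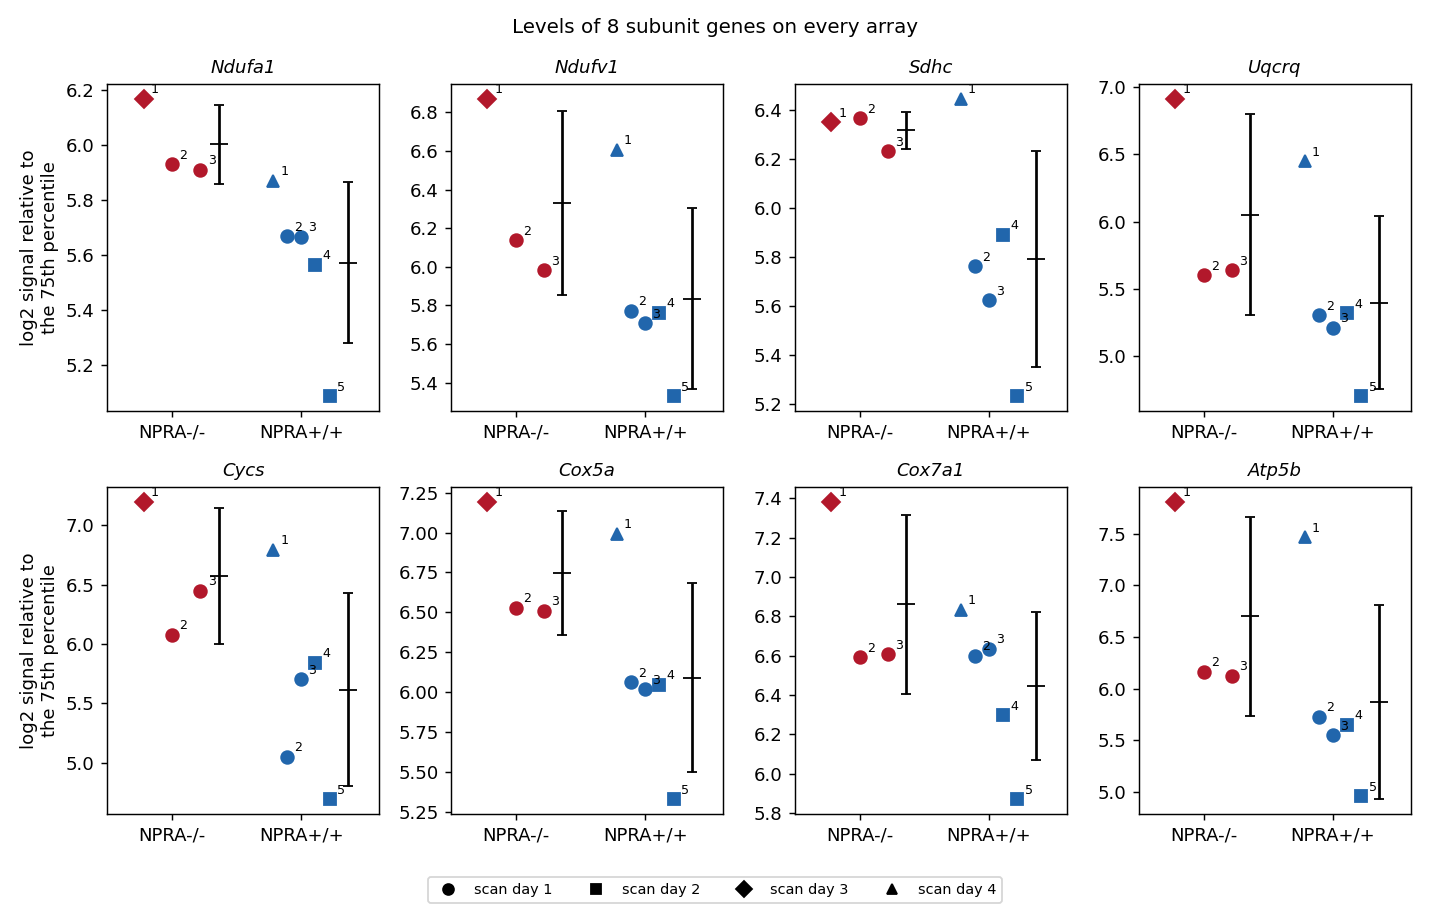
Levels of 8 subunit genes, as log2 signal relative to the array's 75th percentile, on the 3 NPRA-/- (red) and 5 NPRA+/+ (blue) arrays, numbered by replicate, with the scan day as symbol and the mean ± SD in black. In all 8 genes NPRA+/+ replicate 5 is the lowest array, and in all but Ndufa1 NPRA+/+ replicate 1 lies above the lowest NPRA-/- array.

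Fewer genes overlapped between the genotypes when NPRA+/+ replicate 1 was left out. With all arrays 2 of the 47 genes were higher without overlap, against 14.1% of all probes. Leaving out an array can only add to such a count. Without NPRA+/+ replicate 1, all NPRA-/- arrays lay above all other NPRA+/+ arrays in 26 of the 47 genes (55.3%) and below them in 0, against 27.3% and 4.53% of all probes and 27% and 4.87% of the brightest twentieth. Those 26 were 10 of 20 genes of complex I, 3 of 4 of complex II, 3 of 6 of complex III, Cycs, 5 of 10 of complex IV and 4 of 6 of complex V. Without replicate 1 of both genotypes the count was again 26, with 1 gene lower, against 38.6% and 7.27% of all probes and 30.2% and 8.66% of the brightest twentieth. Without NPRA-/- replicate 1 alone it was 2, with 0 lower, against 25.1% and 3.09% of all probes and 8.72% and 3.85% of the brightest twentieth. The choice to leave these arrays out was made after the data were seen, and the 47 genes share the same 8 arrays, so these counts are a description.

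Scan day 1 held arrays of both genotypes, and within it the subunit genes went both ways. Of 46 genes with values on its 4 arrays, 26 were higher on both NPRA-/- arrays than on both NPRA+/+ arrays, 6 were lower and 14 overlapped. Across all probes the shares were 50.4% higher and 16.4% lower, and in the brightest twentieth 37% and 29.6%. The median difference was 0.15 over the 46 genes, 0.17 over all probes and 0.03 over the brightest twentieth. By complex it was 0.07 for I, 0.34 for II, 0.08 for III, 0.08 for IV and 0.24 for V, and the difference for Cycs was 0.89.

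With limma on those 4 arrays alone, 4 subunit genes passed the threshold. Sdhc was higher by a fitted 0.61 ± 0.11 (SE; adjusted p = 0.0379), Cox5a by 0.48 ± 0.09 (adjusted p = 0.0384) and Atp5b by 0.51 ± 0.11 (adjusted p = 0.0492), all by limma with 2 arrays per genotype. Atp5o was lower, at -0.53 ± 0.09 (SE; limma, adjusted p = 0.0337). That fit called 15.6% of all probes higher and 1.37% lower, so the share of subunit genes called higher was below that of all probes. With array weights, which give arrays that fit poorly less influence, Sdhc (0.62 ± 0.13, adjusted p = 0.0104), Cycs (1.00 ± 0.26, adjusted p = 0.0239) and Cox5a (0.58 ± 0.17, adjusted p = 0.0362) were called higher by limma over all 8 arrays, in a fit that called 25.4% of all probes higher and 2.26% lower. The 3 that were higher on scan day 1 are from 3 complexes, and Atp5o belongs to the same enzyme as Atp5b. Arrays with the same scan time in the file headers were taken as lying on 1 slide. By that rule the 2 genotypes of scan day 1 lay on different slides, so slide and genotype cannot be told apart.

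**Figure D5:**
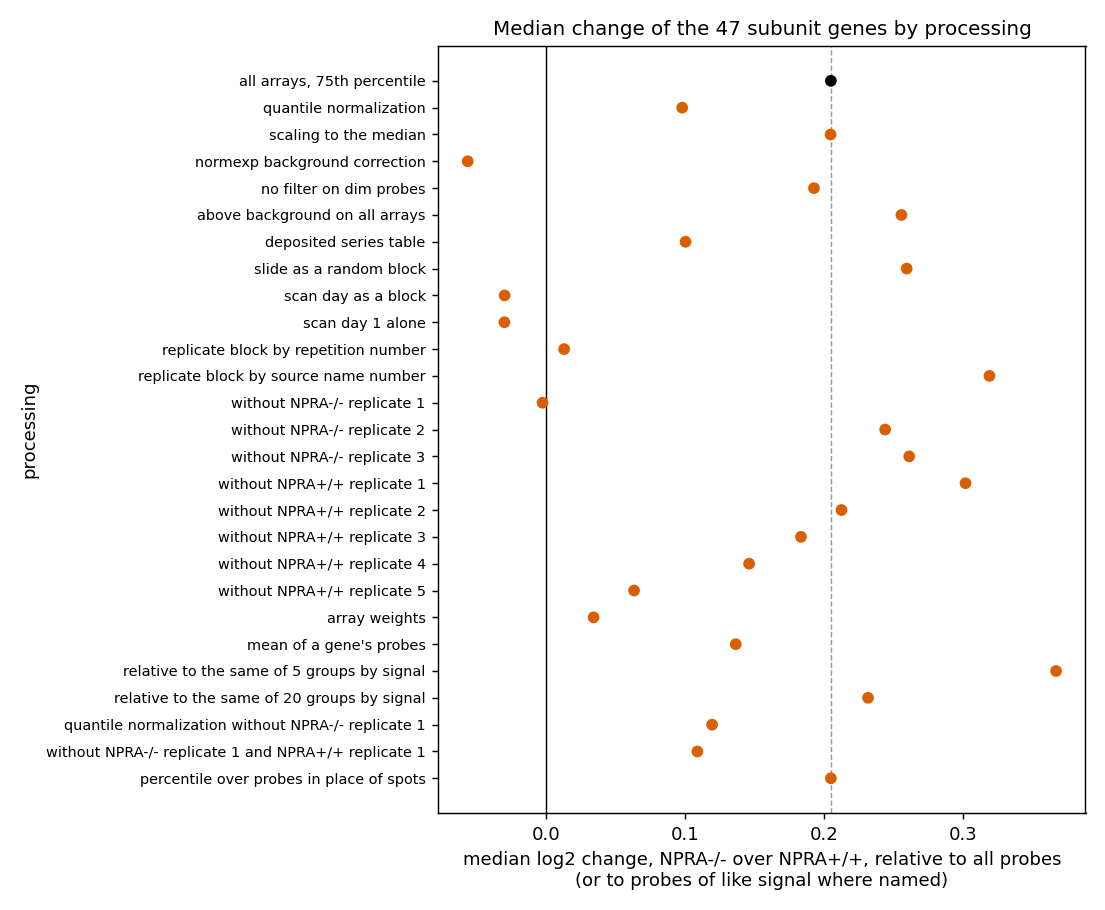
Median log2 change of the 47 subunit genes, NPRA-/- over NPRA+/+, relative to all probes tested, with all arrays scaled to the 75th percentile (black) and in 26 other processings (orange). The medians run from -0.06 with normexp to 0.37 relative to probes of the same of 5 groups by signal, and 4 of 26 are below 0.

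Genes of the same pathway outside the list also gave no calls. Of 33 other genes tested, all subunits except Atpif1, an inhibitor of the ATP synthase, 0 passed the threshold. The median relative change was 0.11, with 22 relative changes above 0 and 11 below. In 1 of the 33, Cox6a1, the NPRA-/- arrays lay above all NPRA+/+ arrays, against 14.1% of all probes and 3.64% of the brightest of the 5 groups. At an unadjusted p under 0.05, 18.3% of all probes and 1.88% of the brightest group were higher. Of the 33 genes there were 2, both higher. They were Atp5e, the epsilon subunit of the ATP synthase, with a relative change of 0.39 ± 0.25 (SE; limma, adjusted p = 0.242), and Ndufb11, a complex I accessory subunit, with 0.46 ± 0.28 (adjusted p = 0.248). Ndufb4, also of complex I, was at 0.25 ± 0.23 (limma, adjusted p = 0.319). Atp5h had values only on NPRA-/- replicates 1 and 2 and NPRA+/+ replicates 1 and 5, with a relative change of 0.38 ± 1.54. On the arrays these 33 genes were at 0.60, 0.15 and 0.13 on NPRA-/- replicates 1 to 3 and 0.35, 0.09, 0.10, -0.09 and -0.46 on NPRA+/+ replicates 1 to 5, again with replicate 1 of each genotype highest and NPRA+/+ replicate 5 lowest.

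Assembly factors, which build the complexes without staying in them, did not share that order. Of 44 tested, 0 passed, the median fitted change was -0.03 and the median relative change -0.23. Their median deviations were -0.07, 0.05 and -0.02 on NPRA-/- replicates 1 to 3 and -0.18, 0.06, 0.03, 0.09 and -0.01 on NPRA+/+ replicates 1 to 5, with NPRA+/+ replicate 1 lowest. Probes in general were similar. The brightest of the 5 groups and the group next to it each had a median relative change of -0.16. The brightest group was at 0.07, 0.06 and 0.03 on NPRA-/- replicates 1 to 3. On NPRA+/+ replicates 1 to 5 it was at -0.12, 0.05, 0.05, 0.04 and -0.02, with replicate 1 again lowest. Timmdc1, a complex I assembly factor, was lower on every NPRA-/- array than on every NPRA+/+ array, at -0.49, -0.50 and -0.43 on the NPRA-/- arrays and -0.35, 0.13, -0.07, -0.07 and 0.18 on the NPRA+/+ arrays. Its relative change was -0.65 ± 0.15 (SE; limma, adjusted p = 0.161), which does not pass. Timmdc1 was the only 1 of the 44 genes without overlap between the genotypes. Across all probes 1.29% were lower without overlap and 14.1% higher. In its own group of the 5 by signal 178 of 7066 probes were lower without overlap. Ndufaf3, of complex I assembly, had a relative change of 0.08 ± 0.17 (limma, adjusted p = 0.376), and Cox14, of complex IV assembly, of 0.43 ± 0.40 (limma, adjusted p = 0.426).

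Transcription and maintenance genes for the respiratory chain, 18 tested, had a median relative change of -0.13, with 3 above 0 and 15 below, and 0 calls. Their median fitted change was 0.08, with 12 above 0, and the brightest of the 5 groups of probes had a median relative change of -0.16. In 2 of the 18 genes all NPRA-/- arrays lay above all NPRA+/+ arrays, against 14.1% of all probes. Polg, the polymerase of mitochondrial DNA, had a relative change of 0.01 ± 0.12 (limma, adjusted p = 0.37), Gabpb1, a subunit of the factor GABP, of -0.03 ± 0.11 (limma, adjusted p = 0.434), and Esrrb, an oestrogen-related receptor, of -0.0005 ± 0.15 (limma, adjusted p = 0.496). Among 6 isoforms used in other tissues or conditions, 0 passed. Cox7b2, an isoform of Cox7b, was higher on every NPRA-/- array, with a relative change of 0.45 ± 0.15 (SE; limma, adjusted p = 0.0815), and its probe was dim. It lay in group 2 of the 5 groups by signal, counted from the dimmest. In that group the median relative change was 0.19, and 1574 of 7066 probes were higher without overlap. The other isoforms of smallest p were Cox6b2, with a relative change of 0.0009 ± 0.19, and Ndufa4l2, with -0.07 ± 0.15. The 13 subunits encoded in mitochondrial DNA were not matched to a probe by their own symbols and were not analysed here.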

How the data were processed

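The authors deposited scanner files with an intensity for each spot, from which the local background has been taken off (per the file headers), and with flags for each spot. The software was Agilent Feature Extraction, version 11.0.1.1, according to the submitters' processing notes. The deposited series table holds log2 values, with a median of 7.04 in every column; its scale and normalization are unstated, and each column ranked the probes as its array did (rank correlation of at least 0.999).

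Here control spots and flagged outliers were left out, log2 values of a probe's spots were averaged, and each array's 75th percentile over all non-control spots was subtracted. Probes well above background on at least 3 of 8 arrays were tested (35329 of 39429) with limma 3.58.1 in R 4.3.3, genotype as the only term, two-sided, with Benjamini-Hochberg adjustment over all probes and a threshold of 0.05. RefSeq transcripts and the GRCm38.p6 gene table named the probes, and the brightest probe stood for a gene. Coordinates are given only for the promoters shown, in GRCm38.p6, as the array design names another build.

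The genes, the lists and the rule for values were chosen with earlier results of these data known. The rule took the genes past the threshold, the 3 smallest p of complexes I, IV and V and the 2 of complexes II and III, fixed genes by role, and genes whose probes differ in sign by more than 1, 24 in all. The other 23 are given by counts and ranges unless said otherwise.

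Repetition numbers are shared between the genotypes, and no label says what a number marks. Deviations from the genotype means correlated by 0.63, 0.28 and 0.36 in equally numbered arrays, but also by 0.25 and 0.33 between numbers 2 and 3, so the pairing is undecided. Numbers by source name gave 0.63, -0.37 and -0.37 for number 1, 0.12 for number 2 and 0.30 for number 3.

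Alternatives were other normalizations and filters, the deposited table, blocks by slide, scan day and number, array weights, averaging a gene's probes and leaving out each array. For normexp the spots' median signal was used. Some, marked as such, were added after the data were seen. On simulated data with 34919 probes, 34%, 66%, 82% and 88% of 50 probes changed by 1, 2, 3 and 4 (log2) were called in the comparison of NPRA-/- with NPRA+/+. The simulated noise was drawn separately for each probe and array, without the shared array variation and scan days of the real data. The shares may therefore not hold for the real arrays.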

Additional observations from a re-analysis of the deposited data

Results flagged for a closer look

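Among the 47 subunit genes, 5 had an NPRA+/+ array far from the other 4 of its genotype, with a gap to the nearest of them above the critical share of the range (0.71) that chance passes in about 1 in 20 groups. Ndufs8 was at 2.4 on NPRA+/+ replicate 5, while the others lay between 2.65 and 2.75. Ndufa9 was at 3.45 on NPRA+/+ replicate 4, against 4.87 to 5.24 on the others. Ndufb3 was at 4.81 on NPRA+/+ replicate 1, against 4.02 to 4.25. Ndufc2 was at 4.51 on NPRA+/+ replicate 5, against 4.94 to 5.1. Atp5c1 was at 6.65 on NPRA+/+ replicate 1, against 3.57 to 4.11, and its second probe followed the same arrays.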

How the results depend on the processing

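The median relative change of the 47 genes lay between -0.06 and 0.37 over 26 alternatives, and was above 0 in 22. It was -0.06 with normexp, -0.03 with scan day as a block and within scan day 1, and just under 0 without NPRA-/- replicate 1. With a replicate block by repetition number it was 0.01 and by source name number 0.32, and 0 genes passed under either replicate block. The count of genes called higher was 3 within scan day 1 and 3 with array weights (Sdhc, Cycs and Cox5a, in a fit that called 25.4% of all probes higher and 2.26% lower), and ran from 0 to 1 when each array was left out, the 1 being Sdhc without NPRA+/+ replicate 1. The count called lower was 1 within scan day 1 and 0 when each array was left out. It changed in no other alternative. Of the 47 fitted changes, 43 above 0 with all arrays, 32 were above 0 with scan day as a block or scan day 1 alone and 30 with quantile normalization or the deposited table. Among the 24 genes given by value, those that turned sign, none of them past the threshold, were as follows. With quantile normalization Ndufs1 was at -0.033, Sdhd at -0.016 and Cox4i1 at -0.034. In the deposited table Ndufs1 was at -0.038, Sdha at 0.39, Sdhd at -0.019, Cox4i1 at -0.038 and Cox7a1 at -0.0007. With scan day as a block or scan day 1 alone Cyc1 was at -0.014, Cox4i1 at -0.052, Cox6a2 at -0.042 and Cox7a1 at -0.018. Sdha was at 0.37 with the replicate block by source name number, and ran from -0.24 to 0.19 as each array was left out, as Cyc1 did from -0.022 (without NPRA-/- replicate 1) to 0.43. Cyc1 was at -0.066 with quantile normalization without NPRA-/- replicate 1, an alternative added after the data were seen. The causes were not tested. With 3 and 5 arrays, and 4 days of scanning that hardly cross with genotype, small changes of these bright probes are not resolved.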
